A study of Homo sapiens with 12 samples.

Results

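The comparison set LS411N-BR against LS411N while the MUC1 hairpin of both lines was not induced, and covered 6 of the 12 samples of the series. LS411N is an established human colon cancer line that carries an activating BRAF mutation, and LS411N-BR is its derivative resistant to BRAF inhibitors. Both lines carried a tetracycline-inducible short hairpin RNA against MUC1 together with puromycin resistance, and the 6 libraries came from cells given no doxycycline, the vehicle being 0.1% DMSO. LS411N grew in RPMI medium with 10% fetal bovine serum, and LS411N-BR grew in the same medium with 4 µM of a BRAF inhibitor that the labels do not name. Each group had 3 libraries of mRNA from cells cultured in triplicate, and whether the triplicates were independent cultures is not given in the labels. The other 6 samples were the same lines given 500 ng/ml doxycycline, and they served here only as separate libraries in which to look at the same line difference. The members were every gene listed for both lines (25540 genes), and a gene was tested when it had at least 1 TPM (transcripts per 1000000) in at least 3 of the 6 libraries (11483 genes). How LS411N-BR was selected, and whether it is 1 clone, the labels do not say.

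BRAF is a kinase that receives signals from RAS and passes them through MEK to ERK, and an activating BRAF mutation keeps ERK on without growth factor. ERK raises transcription of its own brakes, among them the dual-specificity phosphatases (DUSP genes) and the Sprouty proteins. It also raises that of ETS factors such as ETV4 and ETV5, and the mRNA of all these genes is widely read as ERK output. Colon cancer cells can regain ERK activity under a BRAF inhibitor through receptor tyrosine kinases and RAS, and colon epithelium itself ranges from stem cells kept by WNT at the crypt base to absorptive cells with a brush border at the surface.

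The line, the inhibitor in the medium and the deposited table went together in every one of these libraries, so their parts in any difference below cannot be told apart. TPM were rescaled in each library over the genes listed for both lines and then by the median of ratios. Read totals are not given, so depth is unknown, but low values stepped in whole reads, and 1 read was worth between 0.908 and 2.27 times its worth in LS411N replicate 1. The highest of these belonged to LS411N replicate 3, which also stood apart from its group. It had 15116 genes above 0 against 17308 to 17669 in the other 5 libraries, and the standard deviation (SD) of its log2 differences to its 2 partners was 0.221 and 0.225, whereas other replicate pairs gave 0.0913 to 0.105. Of 12 colon epithelial markers, such as CDH17, KRT20 and CDX2, 11 were tested, and their summed level was 2821 to 3055 TPM in LS411N and 3598 to 3765 in LS411N-BR. Endothelial markers summed to at most 0.04 TPM in every library, melanocyte and neural markers to at most 0.826, and fibroblast markers to 0.359 to 0.642 TPM in LS411N and 1.73 to 2.11 in LS411N-BR. Of 8 immune markers, 7 were under 1 TPM in all libraries and the other was LYZ, which is described below as a Paneth cell product.

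At an adjusted p under 0.05 and a difference of at least 1 on the log2(TPM + 1) scale, 363 genes were higher in LS411N-BR (3.16% of those tested) and 363 were lower (3.16%), by limma's moderated test with Benjamini-Hochberg adjustment. None of these 726 genes had overlapping groups, but a call of this size nearly ensures that, so it adds no support. At any size, 39% of tested genes were higher and 32.9% lower, so small differences passed the test for most genes and only those of 2-fold or more are counted as called unless stated. The log2(TPM + 1) scale understates the difference of genes with few TPM. A gene under 1 TPM throughout a group passed the filter only through the other group, where it is high. Without LS411N replicate 3 the counts were 358 higher and 390 lower. Scaling set the balance of the counts: with libraries rescaled over the shared genes alone, the median of all tested genes moved from 0.04 to -0.21 and the counts became 195 higher and 742 lower, while on the values as deposited the median was 0.10 and the counts were 415 and 308. Positive differences smaller than the downward shift, and negative ones smaller than the upward shift, therefore take their direction from the scaling. The p-values measure only the spread between these triplicates, which may be technical. Counts of called list members below stand against the 3.16% of all genes in each direction.

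MUC1, the membrane-spanning mucin whose C-terminal part the series is about, had 5.92, 7.62 and 4.45 TPM in the 3 LS411N libraries and 4.18, 4.15 and 4.79 in those of LS411N-BR. The groups overlapped, and the difference of -0.36 ± 0.15 (SE) was not called by limma (adjusted p = 0.0551). Leaving out LS411N replicate 3 took the difference to -0.52 (limma adjusted p = 0.000197), and leaving out LS411N replicate 2 took it to -0.20 (limma adjusted p = 0.154). The gene lies at chr1:155185824-155192916, minus strand. Coordinates throughout are those of GENCODE 29 on GRCh38. The mean of LS411N was 1.37 times that of LS411N-BR.

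**Figure D1:**
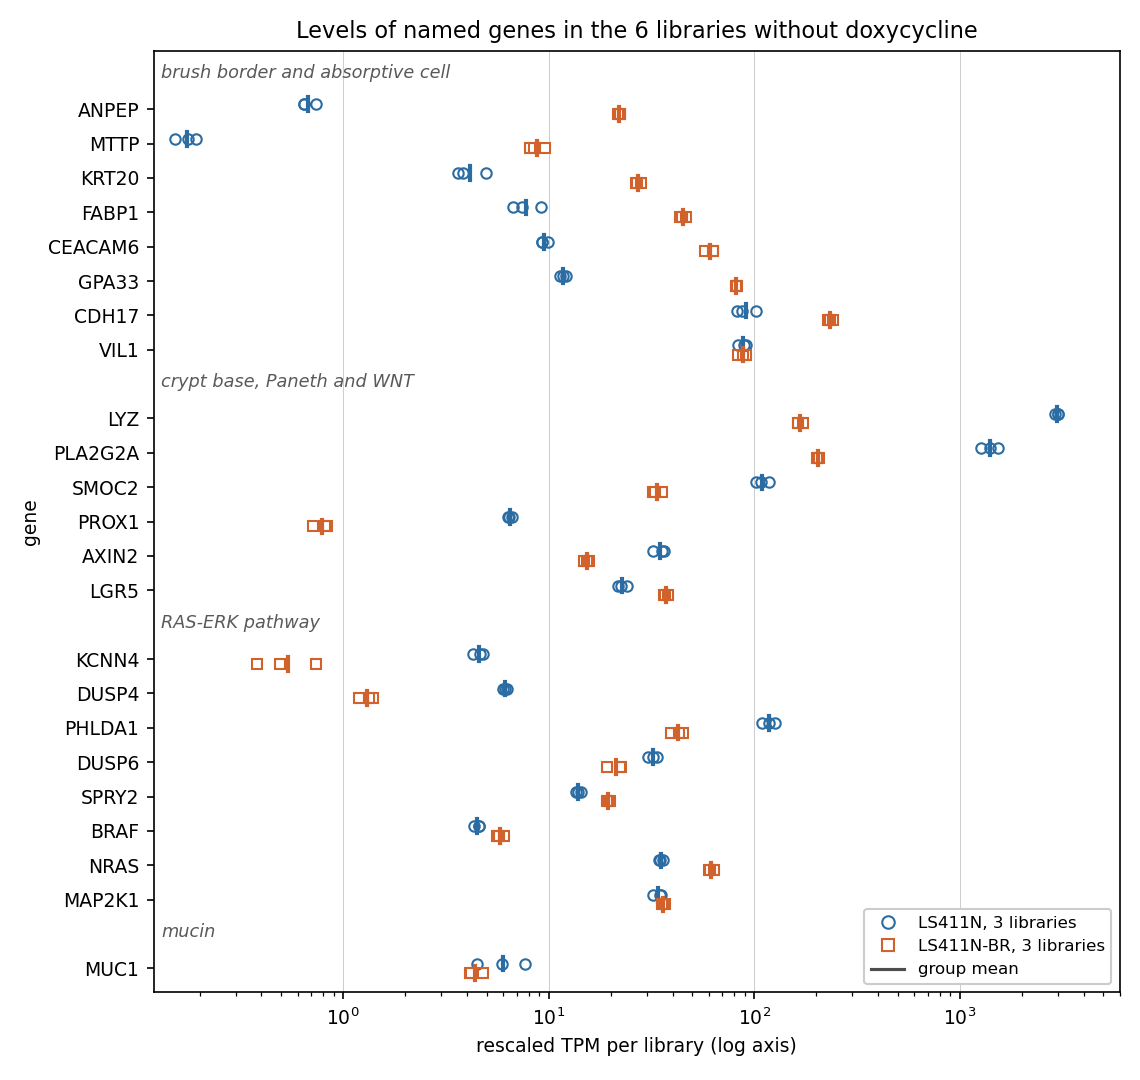
Rescaled TPM on a log axis for 23 genes in the 6 libraries without doxycycline, circles for LS411N and squares for LS411N-BR, with a bar at each group mean. ANPEP, MTTP and KRT20 lie to the right in LS411N-BR, LYZ and PLA2G2A lie to the left, and the groups of VIL1 and of MUC1 overlap.

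Genes of the absorptive cell were higher in the resistant line. Of 24 tested members of the absorptive colonocyte list (40 listed), 13 were called higher and 1 lower, against 3.16% of all genes in each direction, and the list's median difference was 1.15 against 0.04 for all tested genes. The other listed members did not reach the filter. ANPEP and MTTP passed it only through LS411N-BR, where they are high, so their calls are not independent of the filter. ANPEP, the brush border aminopeptidase N (chr15:89784889-89815401, minus strand), had 0.642, 0.740 and 0.647 TPM in LS411N and 21.7, 22.2 and 22.3 in LS411N-BR. Every resistant library stood over 20 TPM and every parental one under 1, a difference of 3.78 ± 0.05 (limma adjusted p = 4.44e-09). MTTP loads lipid onto apolipoprotein B in cells that make lipoproteins, and lies at chr4:99563761-99623999, plus strand. It went from 0.152, 0.192 and 0.176 TPM to 8.14, 9.63 and 8.52, a difference of 3.05 ± 0.07 (limma adjusted p = 2.74e-08). KRT20, the keratin of mature surface cells, had 3.60, 3.81 and 4.94 TPM in LS411N against 26.4, 28.1 and 26.9 in LS411N-BR, 6.59 times as much (2.47 ± 0.09, limma adjusted p = 2.44e-07). CEACAM6, a cell adhesion protein of the upper crypt, rose from 9.87, 9.31 and 9.22 to 63.0, 57.3 and 62.7 TPM, 6.44 times as much (limma adjusted p = 1.61e-08).

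The other members called higher, named after their values were seen, were FABP1 and FABP2, which carry fatty acids in the enterocyte, DPP4, a brush border peptidase, CEACAM5 and CEACAM7, the microvillus proteins MYO7B and PLS1, the ligand precursor GUCA2A and the membrane protein EMP1. FABP1 went from 7.76 ± 1.28 (mean ± SD, n = 3) to 45.1 ± 1.55 TPM and DPP4 from 17.6 ± 3.07 to 59.0 ± 1.02. GPA33, the A33 antigen of intestinal epithelium, from the colon epithelial markers, had 11.8, 12.1 and 11.3 TPM in LS411N and 82.5, 81.9 and 81.2 in LS411N-BR. GPA33, CA2 and VIL1 were chosen after their values were seen, the latter 2 as exceptions in the list. CA2, a carbonic anhydrase of absorptive cells, was called lower, from 32.0 ± 2.91 TPM in LS411N to 13.6 ± 1.10 in LS411N-BR. VIL1, the villin of microvilli, had 83.0, 88.9 and 91.6 TPM in LS411N and 88.6, 91.4 and 83.7 in LS411N-BR, and its difference of 0.00 ± 0.05 was not called. EPCAM, a general epithelial marker of the colon and also chosen after its values were seen, differed by only 0.39 ± 0.05. In all, 3 of the 24 members fell at any size and 19 rose, against 32.9% and 39% of all genes.

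Transcription factors of intestinal identity moved by less but mostly the same way. Of 21 tested members none was called at 2-fold, while 17 rose and 3 fell at any size against 39% and 32.9% of all genes, and the list's median was 0.54. CDX2, the homeobox factor that specifies intestine, had 13.0, 13.9 and 14.2 TPM in LS411N and 24.3, 26.9 and 24.8 in LS411N-BR (0.84 ± 0.06, limma adjusted p = 3.60e-06). HNF4G, a nuclear receptor of enterocytes, rose from 16.0 ± 0.727 to 31.1 ± 1.35 TPM and its relative HNF4A from 24.7 ± 0.709 to 29.1 ± 0.973, a difference of 0.23 that is near the size of the scaling shift. ELF3, an ETS factor of epithelium, fell from 53.0 ± 0.809 to 34.1 ± 0.974 TPM. HNF4G, HNF4A and ELF3 were named after their values were seen.

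Promoters of the genes called at 2-fold were searched for 5 words, on both strands, in the 250 bases before and 50 bases after the start site given by RefSeq (GRCh38.p14), which covered 8758 tested genes, 256 called higher and 276 called lower. The HNF4 half-site word CAAAGTCCA stood in 5 promoters of the genes called higher (1.95%), in none of those called lower and in 27 of all 8758 (0.308%). The AP-1 word TGACTCA stood in 4.69% of the higher, 3.99% of the lower and 2.89% of all promoters. The ETS word CCGGAAGT stood in 3.13%, 9.78% and 9.56%, the TCF word ATCAAAGG in 0, 1.09% and 0.491%, and the E-box CACGTG in 10.2%, 10.9% and 10.6%. The HNF4 and TCF words share the letters CAAAG. These shares are descriptions without a test, and a word is not evidence that a factor binds there. The 5 genes with the HNF4 word were REG1A, CYP2B6, APOBEC1, HAAO and CD68, of which CD68 has it after the start site. APOBEC1, HAAO and CD68 are named for this word, after their values were seen. The stretches before the start site of the other 4 are shown 5′ to 3′ on the strand of the gene, with the word, or its reverse complement in CYP2B6, in capitals.
REG1A, chr2:79120238-79120325, plus strand: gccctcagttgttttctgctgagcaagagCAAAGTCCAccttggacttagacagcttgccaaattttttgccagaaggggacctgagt
CYP2B6, chr19:40991032-40991109, plus strand: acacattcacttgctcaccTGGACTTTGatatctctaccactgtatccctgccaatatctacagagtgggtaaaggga
APOBEC1, chr12:7665909-7665986, minus strand: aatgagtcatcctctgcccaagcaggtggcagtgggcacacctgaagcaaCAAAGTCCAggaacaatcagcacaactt
HAAO, chr2:42792646-42792754, minus strand: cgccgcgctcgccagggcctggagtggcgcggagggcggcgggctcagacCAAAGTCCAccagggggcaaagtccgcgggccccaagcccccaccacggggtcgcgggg
APOBEC1, the cytidine deaminase that edits apolipoprotein B mRNA in the small intestine, went from 3.28, 3.76 and 2.31 TPM in LS411N to 19.5, 18.4 and 18.3 in LS411N-BR. HAAO, an enzyme of tryptophan breakdown, went from 2.99, 2.95 and 1.58 to 6.98, 6.57 and 6.27 TPM, below 2-fold when LS411N replicate 3 was left out. The groups of both genes were apart, with differences of 2.28 ± 0.12 and 1.14 ± 0.16.

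REG1A, a secreted lectin-like protein of regenerating gut epithelium at chr2:79120362-79123419, plus strand, showed the largest difference of the genes called higher in LS411N-BR whose mean there reached 5 TPM. It had 0.645, 0.223 and 0.563 TPM in LS411N and 50.2, 60.1 and 52.3 in LS411N-BR (5.23 ± 0.12, limma adjusted p = 2.17e-08). TSPAN7, a four-span membrane protein at chrX:38561370-38688920, plus strand, went from 2.71, 2.56 and 1.71 to 53.3, 55.8 and 52.5 TPM, 23.1 times as much. TMEM200A encodes a membrane protein and was close to 0 in the parental line. Its values were 0.0411, 0.0379 and 0.0478 TPM there and 14.8, 16.0 and 15.6 in the resistant line (3.98 ± 0.06, limma adjusted p = 4.44e-09), a gene near silent in one line and expressed in the other. VAV3, an exchange factor that activates small GTPases downstream of receptors and SRC kinases (chr1:107571160-107965144, minus strand), went from 0.491, 0.489 and 0.239 TPM to 9.95, 10.4 and 10.2 (3.00 ± 0.08, limma adjusted p = 5.69e-08). MAGED1, an adaptor of the MAGE family on the X chromosome, went from 0.410 ± 0.253 to 7.22 ± 0.372 TPM.

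The remaining genes among the 12 that rose most were RNAs or gene copies that an mRNA library measures with less certainty. TAB3-AS1, an antisense RNA, had 0.507, 1.05 and 0 TPM in LS411N and 69.7, 12.9 and 22.1 in LS411N-BR, a wide spread among the resistant libraries. The microRNA gene MIR3675 stood at 6.63 ± 0.592 and 110.0 ± 51.3 TPM and the small nucleolar RNA SNORD52 at 2.95 ± 1.95 and 37.1 ± 10.2 TPM, both too short for their precursors to be captured fully by this kind of library. HIST1H4K and H2BFS belong to histone families of near-identical copies, so reads can be split between copies and the values of 1735 ± 332 and 43.1 ± 5.59 TPM in LS411N-BR, against 101 ± 2.34 and 4.53 ± 1.13 in LS411N, are uncertain by gene. TMEM132D-AS1, another antisense RNA, went from 13.2 ± 0.533 to 115 ± 10.4 TPM.

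PRSS2, PRSS1 and LYZ were among the 12 genes that fell most. PRSS1 and PRSS2 encode trypsinogens and are near-identical copies. PRSS1 lies at chr7:142749468-142753076, plus strand, and PRSS2 beside it at chr7:142760398-142774564, plus strand, so their reads may be split between them. PRSS2 had 43.0, 55.6 and 55.1 TPM in LS411N and 0.503, 0.193 and 0.451 in LS411N-BR (-5.24 ± 0.12, limma adjusted p = 2.46e-08). PRSS1 had 17.6, 24.9 and 23.9 and 0.503, 0.567 and 0.698 TPM. LYZ, the lysozyme that Paneth cells secrete (chr12:69348341-69354234, plus strand), had 2895, 3020.0 and 3019 TPM in the parental line and 173, 163 and 163 in the resistant line, 17.9 times lower (-4.15 ± 0.05, limma adjusted p = 2.48e-09). PLA2G2A, the secreted phospholipase of Paneth cells, named after its values were seen, showed 1409, 1533 and 1266 TPM in LS411N and 201, 207 and 204 in LS411N-BR. The 4 genes were lower in every LS411N-BR library than in any LS411N library, which the rule that chose PRSS2, PRSS1 and LYZ had required of them.

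CXCR4, the receptor of the chemokine CXCL12, went from 12.7, 11.7 and 10.3 TPM to 0.663, 0.513 and 0.777 (-2.92 ± 0.09, limma adjusted p = 9.98e-08). IFI6, an interferon-stimulated gene of the mitochondrion and endoplasmic reticulum, went from 15.7, 15.8 and 12.8 to 0.497, 0.561 and 0.686 TPM. SMOC1, a secreted matrix protein that binds calcium, fell from 16.6, 17.2 and 16.8 to 1.07, 0.962 and 0.975 TPM. TESC, a calcium-binding regulator of a sodium/proton exchanger, was 9.64 times lower (163 ± 1.24 against 16.9 ± 1.13 TPM), and PGM5, a structural relative of phosphoglucomutase, 11.9 times lower (22.7 ± 1.19 against 1.91 ± 0.136). The other 4 of the 12 that fell most, PET100, SNRPF, RPS27 and RPLP1, encode ribosomal, spliceosomal and respiratory chain assembly proteins and are taken up with the ribosomal protein genes.

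Crypt-base and WNT target genes were split, with most lower. Of 25 tested members 8 were called lower and none higher, against 3.16% of all genes each way, and the median was -0.40. At any size 18 fell and 5 rose, against 32.9% and 39% of all genes. PROX1, a homeobox factor driven by WNT in colon tumours (chr1:213983181-214041502, plus strand), had 6.33, 6.62 and 6.40 TPM in LS411N and 0.717, 0.811 and 0.835 in LS411N-BR (-2.06 ± 0.06, limma adjusted p = 7.03e-08). SMOC2, a matrix protein of crypt-base stem cells, fell from 108, 118 and 102 to 32.1, 35.4 and 33.0 TPM, 3.26 times lower. KCNE3, a potassium channel subunit of the crypt, fell from 28.8, 30.1 and 28.4 to 10.2, 10.1 and 10.2 TPM. The other 5 called members, chosen after their values were seen, were the WNT feedback genes AXIN2, NKD1 and SP5, the stem cell factor ASCL2 and the receptor EPHB3, and AXIN2 fell from 34.7 ± 2.19 to 15.3 ± 0.438 TPM.

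LGR5, the R-spondin receptor that marks crypt-base stem cells, went against the list. It had 21.8, 22.4 and 24.1 TPM in LS411N and 36.4, 36.8 and 38.1 in LS411N-BR (0.68 ± 0.05, limma adjusted p = 5.67e-06), so the resistant libraries were higher without overlap. OLFM4, another stem cell marker, stood at 14.4 ± 1.17 and 22.1 ± 1.81 TPM, and CD44, an adhesion receptor and WNT target, at 125 ± 2.73 and 181 ± 2.65, both higher and both named after their values were seen. Markers of goblet, enteroendocrine and tuft cells had no common direction, with 2 of 14 tested called higher, 3 lower and a median of -0.03. ATOH1, the factor that commits cells to the secretory lineage, went from 0.256, 0.864 and 0.792 TPM to 2.39, 3.14 and 2.93, while SPDEF, which acts in goblet cell maturation, went from 4.77, 4.74 and 3.40 to 1.30, 0.764 and 1.12. CHGB, a granin of enteroendocrine cells, rose from 1.47 ± 0.0825 to 6.41 ± 0.256 TPM.

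ERK output genes did not share a direction, with more of them lower than higher in the resistant line. Of 24 tested members 4 were called lower and none higher, against 3.16% of all genes each way, and the median was -0.22. At any size 12 fell and 7 rose, against 32.9% and 39% of all genes. KCNN4, a calcium-activated potassium channel induced by ERK and AP-1 (chr19:43766533-43781261, minus strand), had 4.29, 4.65 and 4.80 TPM in LS411N and 0.492, 0.736 and 0.381 in LS411N-BR (-1.87 ± 0.09, limma adjusted p = 9.44e-07). DUSP4, a nuclear phosphatase that turns off ERK (chr8:29333064-29350668, minus strand), went from 6.01, 6.10 and 6.23 TPM to 1.40, 1.20 and 1.34, 4.66 times lower (-1.62 ± 0.06, limma adjusted p = 2.33e-07). PHLDA1, a protein induced by growth signals, fell from 126, 117 and 109 to 45.2, 39.6 and 42.9 TPM. The fourth, IER3, an immediate early gene, fell from 14.7, 14.3 and 10.9 to 4.83, 4.19 and 4.53 TPM.

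Other ERK brakes and targets moved by less. DUSP6, the cytoplasmic ERK phosphatase, had 33.8, 32.2 and 30.5 TPM in LS411N and 22.1, 19.3 and 22.5 in LS411N-BR (-0.57 ± 0.07, limma adjusted p = 8.27e-05). ETV5 differed by -0.39 ± 0.06, ETV4 by -0.32 ± 0.10 and SPRY4 by -0.37 ± 0.10, all lower, but the call of ETV4 is not firm. It was lost on the values as deposited, with a filter of any value above 0, and without LS411N replicate 1, LS411N replicate 2, LS411N-BR replicate 2 or LS411N-BR replicate 3 (adjusted p from 0.0529 to 0.088). SPRY2, a brake on receptor signalling, went the other way with 13.8, 14.4 and 13.6 TPM against 19.5, 19.8 and 19.1 (0.45 ± 0.04), a call lost under rescaling over the shared genes alone (adjusted p = 0.155). CCND1, the cyclin D1 that ERK induces, had 73.9, 70.3 and 63.2 TPM and 62.8, 63.7 and 62.1 and was not called (-0.13 ± 0.06, limma adjusted p = 0.0726). It was called lower without LS411N replicate 3 (-0.19, adjusted p = 0.000668), under rescaling over the shared genes alone (-0.41, adjusted p = 0.00449), with the spread of all 12 libraries (adjusted p = 0.0264), with protein-coding genes only (adjusted p = 0.042) and with coding transcripts of at least 400 bases (adjusted p = 0.0408). MYC differed by 0.22 ± 0.06 (limma adjusted p = 0.0151) and changed sign to -0.056 under rescaling over the shared genes alone (adjusted p = 0.646). Its call was also lost without LS411N-BR replicate 1 or replicate 3 (adjusted p = 0.0557 and 0.0541), so these data give it no direction. DUSP5, a nuclear ERK phosphatase chosen after its values were seen, was higher at 24.7 ± 0.722 against 13.6 ± 1.65 TPM, so the phosphatases did not move together.

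In the cascade above these genes 1 member was called at 2-fold on the log2(TPM + 1) scale. Of 27 tested genes of RAS, RAF, MEK, ERK and their regulators, 16 rose and 5 fell at any size, against 39% and 32.9% of all genes. The median was 0.27, near the size of the scaling shift, and only RRAS was called at 2-fold. NRAS, a RAS GTPase, had 36.1, 34.7 and 34.2 TPM in LS411N and 61.2, 60.3 and 63.5 in LS411N-BR, 1.76 times as much (0.80 ± 0.04, limma adjusted p = 1.20e-06). Its groups were apart. BRAF itself, the target of the inhibitor, had 4.31, 4.57 and 4.58 TPM in LS411N and 5.72, 6.08 and 5.60 in LS411N-BR (0.31 ± 0.05, limma adjusted p = 0.000988). Under rescaling over the shared genes alone BRAF was not called (0.08, adjusted p = 0.598). MAP2K1, which encodes MEK1, was not called (0.09 ± 0.05, limma adjusted p = 0.116). HRAS and the RAF inhibitor protein PEBP1, named after their values were seen, were lower by 2.08 and 1.97 times. RRAS, a RAS relative that acts on integrins, had 5.28, 6.13 and 3.05 TPM against 10.8, 10.0 and 10.3, and its 2-fold call rested on replicate 3 of LS411N: without it the difference was 0.77.

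Receptor tyrosine kinases did not move one way. Of 19 tested, 1 was called higher, 3 lower, and the median was -0.27. EGFR had 11.8, 11.9 and 14.2 TPM in LS411N and 19.7, 20.5 and 19.4 in LS411N-BR (0.62 ± 0.07, limma adjusted p = 8.68e-05) and MET, the receptor of hepatocyte growth factor, 85.5 ± 7.03 against 123 ± 2.16 TPM (0.53 ± 0.06). Rescaling over the shared genes alone left neither called (adjusted p = 0.0556 and 0.135). ERBB2 was not called (-0.07 ± 0.05, limma adjusted p = 0.194) but was called lower under that rescaling (-0.33, adjusted p = 0.0191). ERBB3 and IGF1R were lower by -0.32 ± 0.05 and -0.40 ± 0.07, calls lost on the values as deposited (adjusted p = 0.178 and 0.0675). ROR1, a receptor of WNT5A, fell from 3.74, 3.58 and 3.02 TPM to 0.455, 0.437 and 0.517, and PTK7, a pseudokinase of planar polarity, from 4.50, 4.51 and 4.53 to 1.18, 1.46 and 1.41. EPHA1 rose from 3.42, 3.72 and 3.56 TPM in LS411N to 12.6, 11.8 and 11.9 in LS411N-BR (1.52 ± 0.05, limma adjusted p = 1.86e-07). Among 15 tested growth factor ligands 1 was called, VEGFA, which induces vessel growth. It fell from 79.2, 81.9 and 64.1 TPM in LS411N to 35.8, 34.8 and 36.0 in LS411N-BR. Without LS411N replicate 3 the count of called ligands was 3.

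PTPN11, which encodes SHP2, a phosphatase that couples receptors to RAS, had 102, 99.2 and 109.5 TPM in LS411N and 101, 103 and 99.6 in LS411N-BR and was not called (-0.03 ± 0.05, limma adjusted p = 0.558). LCK, a SRC-family kinase best known from T cells, went from 6.24, 6.85 and 5.99 TPM to 0.774, 0.565 and 0.593 (-2.16 ± 0.08, limma adjusted p = 1.92e-07). FYN, its relative, fell from 8.98, 9.71 and 9.70 to 2.13, 1.93 and 2.28 TPM. The list of SHP2, adaptors and SRC kinases held 3 called lower and 3 higher of 24, VAV3 among the higher, with a median of 0.11. In the PI3K-AKT-mTOR list 1 of 22 was called, DDIT4, an inhibitor of mTORC1 induced by stress, which fell from 202 ± 27.1 to 93.5 ± 0.193 TPM.

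AP-1 and immediate early genes had a median of -0.45, with 4 of 18 called lower and 1 higher against 3.16% of all genes each way; without LS411N replicate 3 the lower calls were 6. JUN, a core AP-1 subunit, had 10.1, 11.5 and 10.4 TPM in LS411N and 2.95, 2.62 and 2.95 in LS411N-BR, 3.76 times lower (-1.60 ± 0.07, limma adjusted p = 4.01e-07). IER5 fell from 10.0 ± 0.0853 to 3.37 ± 0.175 TPM. FOS, the partner of JUN, had 4.34, 4.55 and 2.85 TPM in LS411N and 4.56, 3.60 and 3.97 in LS411N-BR, with overlapping groups. FOSL1, a FOS relative stabilised by ERK, was higher at 49.0 ± 1.73 against 37.6 ± 4.39 TPM. FOS and FOSL1 were chosen after their values were seen, and with JUN they show that the AP-1 subunits did not share a direction.

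Mucins and their glycosylation enzymes held 6 called higher and 1 lower of 25 tested, against 3.16% of all genes each way, with a median of 0.23, while 8 members passed no test. LGALS3, a galectin that binds mucin-type glycans (chr14:55124110-55145413, plus strand), had 129.5, 128 and 139 TPM in LS411N and 652, 598 and 680.3 in LS411N-BR (2.28 ± 0.06, limma adjusted p = 4.79e-08). LGALS4, a galectin of the brush border, rose from 239 ± 13.7 to 583 ± 10.6 TPM. MUC3A, a membrane mucin of enterocytes, rose from 1.91, 1.93 and 1.46 to 6.04, 6.22 and 6.38 TPM, although its repeats and its similarity to a neighbouring copy make its reads uncertain. LGALS1, chosen after its values were seen, was the member called lower, and below 2-fold without LS411N replicate 3.

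Of 34 tested junction and keratin genes 4 were called higher and 2 lower. CLDN2, a pore-forming claudin of the crypt, had 53.7, 57.4 and 54.3 TPM in LS411N and 12.2, 10.9 and 13.1 in LS411N-BR, 4.58 times lower (-2.11 ± 0.07, limma adjusted p = 1.04e-07). CDH17, the intestinal liver-intestine cadherin, rose from 82.8, 87.5 and 102 to 229, 235 and 240.3 TPM, and PKP2, a desmosome plaque protein, from 48.6, 49.4 and 53.2 to 159, 171 and 164. Of 24 tested mesenchymal and matrix genes 3 were called lower and 2 higher, with a median of 0.28. FN1, the matrix protein fibronectin, had 3.79, 4.10 and 4.15 TPM in LS411N and 0.0401, 0.0468 and 0.0472 in LS411N-BR, near silent in the resistant line (-2.26 ± 0.06, limma adjusted p = 7.28e-08). S100A4, a calcium-binding protein of motile cells, fell from 47.2 ± 4.92 to 12.5 ± 1.28 TPM. THBS1, a matrix glycoprotein, went the other way, from 3.86 ± 0.271 to 12.3 ± 0.414 TPM.

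Enzymes that metabolise drugs were higher in part. Of 28 tested members 8 were called higher and none lower, against 3.16% of all genes each way, with a median of 0.32. At any size 15 rose and 6 fell, against 39% and 32.9% of all genes. CYP2B6, a cytochrome P450 whose promoter stretch is shown above, had 2.10, 2.92 and 2.86 TPM in LS411N and 8.13, 8.85 and 9.03 in LS411N-BR (1.42 ± 0.10, limma adjusted p = 3.98e-06). CYP2J2, an arachidonic acid epoxygenase, rose from 7.95, 7.61 and 7.77 to 20.5, 21.4 and 20.8 TPM and CYP4F3, a leukotriene hydroxylase, from 1.86, 2.01 and 2.37 to 6.11, 5.77 and 6.11. UGT1A1, which conjugates bilirubin and many drugs and was named after its values were seen, stood at 0.542 ± 0.165 TPM in LS411N and 2.34 ± 0.186 in LS411N-BR. Its exons are partly shared with the other UGT1A genes.

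None of 10 tested ABC drug pumps was called at 2-fold. At any size 4 rose and 2 fell, against 39% and 32.9% of all genes. ABCG2, the breast cancer resistance protein, had 10.99, 10.9 and 10.4 TPM in LS411N and 20.9, 22.3 and 22.1 in LS411N-BR, 2.02 times as much and just under the log2 threshold (0.95 ± 0.05, limma adjusted p = 9.26e-07). ABCB1, which encodes P-glycoprotein, was too low to test, with 0.0157, 0.0144 and 0 TPM in LS411N, the last listed at 0, and 0.217, 0.379 and 0.321 in LS411N-BR. NRF2 target genes had no common direction, with 2 called higher and 3 lower of 32. ALDH3A1, an aldehyde dehydrogenase, fell from 32.7, 32.5 and 30.4 TPM to 5.60, 4.83 and 4.64 (-2.45 ± 0.07, limma adjusted p = 5.69e-08). AKR1C3, a steroid-reducing enzyme with close relatives among the AKR1C genes, fell from 8.22 ± 1.02 to 1.28 ± 0.178 TPM, and PIR, an iron-binding nuclear protein, rose from 3.23 ± 0.872 to 9.50 ± 0.310.

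Proliferation genes differed little. None of 38 DNA replication genes and none of 36 mitosis genes was called at 2-fold, with medians of -0.17 and 0.12. At any size 20 replication genes fell and 9 rose, and 18 mitosis genes rose and 7 fell, against 32.9% of all genes lower and 39% higher. The mitosis median is smaller than the downward scaling shift, so its direction depends on the scaling. The replication median, already below 0, is larger in size than the upward shift. List medians were not computed under other scalings. MKI67, the proliferation antigen, chosen after its values were seen, had 68.2, 73.2 and 67.8 TPM in LS411N and 69.0, 72.7 and 67.2 in LS411N-BR with overlapping groups. Of 27 G1 regulators 1 was called higher and 2 lower. CDKN1A, the CDK inhibitor p21, rose from 8.39, 8.99 and 7.71 TPM to 20.2, 19.3 and 19.7 (1.15 ± 0.06, limma adjusted p = 1.04e-06), and CDKN2B, the CDK4 and CDK6 inhibitor p15, fell from 3.01, 3.58 and 3.06 to 0.590, 0.619 and 0.640 (-1.38 ± 0.07, limma adjusted p = 1.24e-06). GDF15, a stress-induced cytokine, fell from 128 ± 0.462 to 59.7 ± 4.20 TPM.

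Of 27 tested genes of cell death, 4 were called higher and 1 lower; without LS411N replicate 3, 3 were lower. FAS, the death receptor, had 1.25, 1.17 and 1.35 TPM in LS411N and 6.01, 5.92 and 6.26 in LS411N-BR, 4.83 times as much (1.65 ± 0.06, limma adjusted p = 2.12e-07). BIK, a BH3-only protein, rose from 16.8 ± 2.09 to 41.5 ± 3.78 TPM, while BBC3, the BH3-only protein PUMA, fell from 5.52 ± 1.17 to 1.98 ± 0.0935. Chemokine and NF-kB genes held 4 called lower and 1 higher of 22. The neutrophil chemokines CXCL1 and CXCL3, neighbours on chromosome 4, fell together, CXCL1 from 5.52, 5.17 and 5.36 TPM to 1.06, 1.32 and 1.24 and CXCL3 from 5.57, 5.61 and 4.48 to 0.654, 0.778 and 0.767. Interferon and MHC class I genes had 1 call each way among 25, and both belong to the interferon response. IFITM1, an antiviral membrane protein, had 0.758, 1.24 and 0 TPM in LS411N, listed at 0 in replicate 3, and 12.1, 11.4 and 11.1 in LS411N-BR (2.99 ± 0.25, limma adjusted p = 1.26e-05), whereas IFI6, given above, was lower.

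Among 30 hypoxia and glycolysis genes 2 were called higher and 1 lower. NDRG1, a stress and differentiation gene, rose from 11.4, 13.4 and 11.03 TPM to 30.0, 33.9 and 31.3 and PGAM1, a glycolytic mutase, from 71.6, 68.6 and 69.1 to 146, 142 and 142. None of 31 cholesterol and fatty acid synthesis genes was called at 2-fold. Genes of the ATF4 and unfolded protein responses had the lowest list median, -0.52, with 3 of 33 called lower and none higher against 3.16% of all genes each way. At any size 21 fell and 7 rose, against 32.9% and 39% of all genes. DDIT3, the stress factor CHOP, had 38.5, 37.4 and 38.1 TPM in LS411N and 9.72, 8.69 and 9.03 in LS411N-BR, 4.16 times lower (-1.94 ± 0.05, limma adjusted p = 4.18e-08). PHGDH, the first enzyme of serine synthesis, fell from 175 ± 9.53 to 73.8 ± 0.769 TPM and SLC7A11, the cystine carrier, from 52.7 ± 4.23 to 23.5 ± 0.594. ATF4 itself, named after its values were seen, was lower at 236 ± 2.43 against 422 ± 28.0 TPM, below 2-fold.

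BMP4, a secreted ligand of the TGF-beta family, was the one called member of 22 YAP and BMP or TGF-beta targets. It was lower, falling from 55.7 ± 1.71 TPM in LS411N to 25.4 ± 2.07 in LS411N-BR. In the list of cancer-testis, imprinted and developmental genes 7 of 27 were tested, and IGF2BP3, an RNA-binding protein of fetal tissue, rose from 13.4 ± 0.264 to 31.6 ± 1.23 TPM. H19, an imprinted noncoding RNA, fell from 1.31, 1.87 and 1.65 TPM to 0.169, 0.195 and 0.231.

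**Figure D2:**
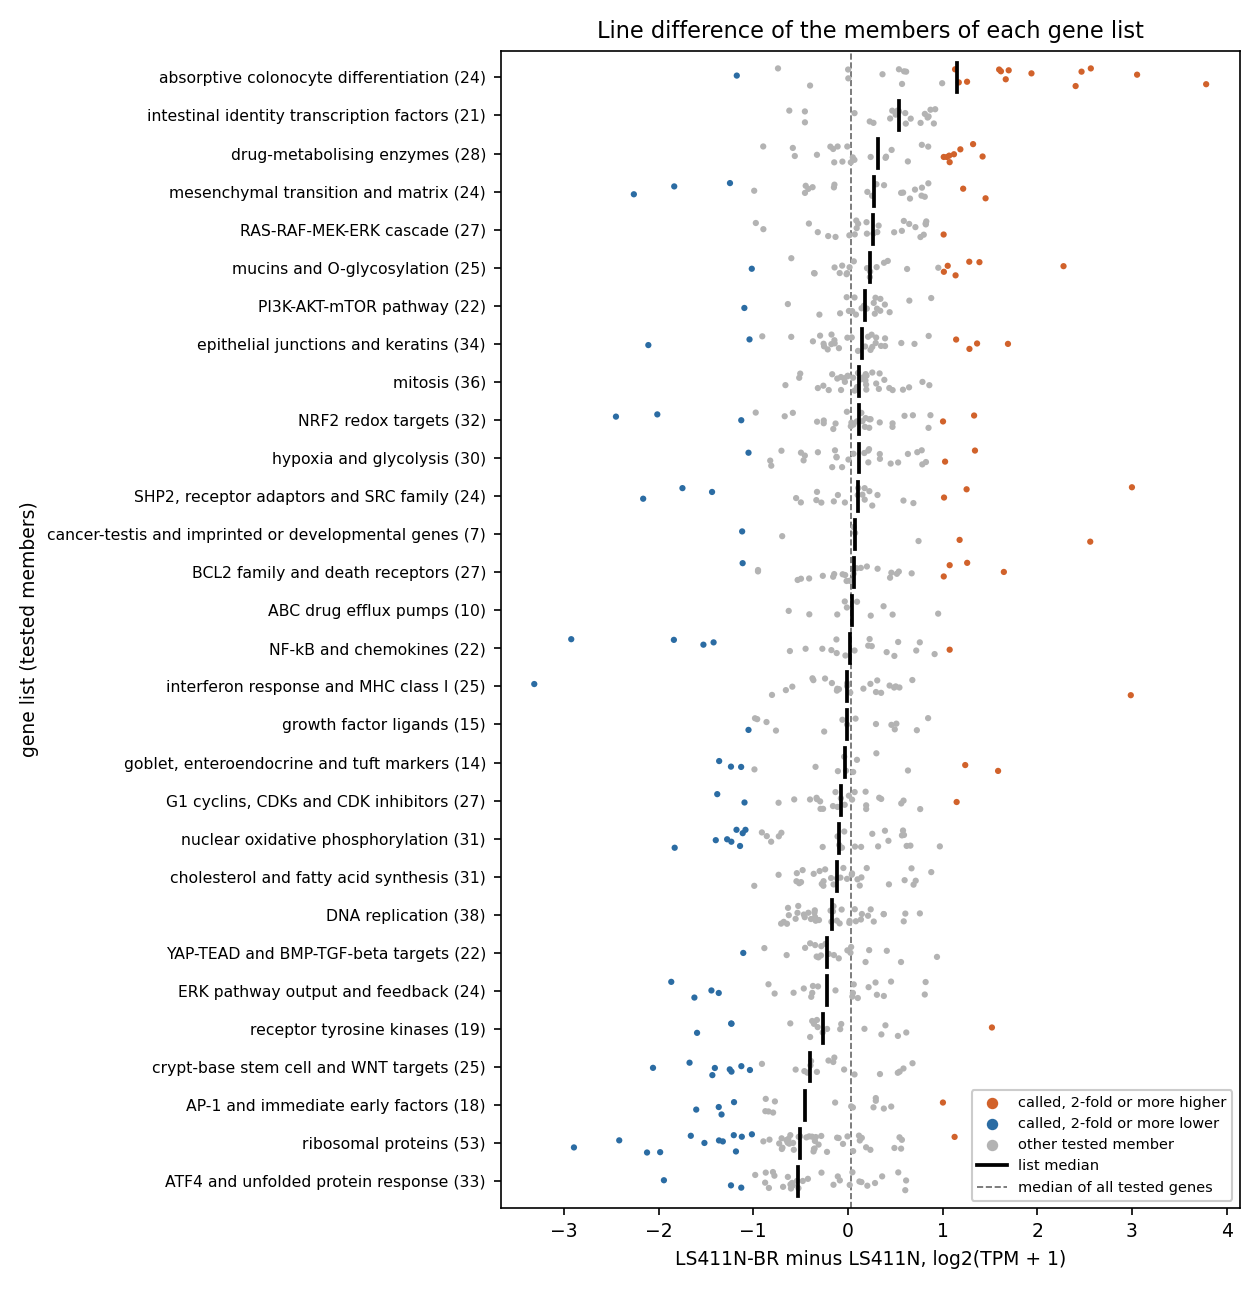
Difference of LS411N-BR minus LS411N on the log2(TPM + 1) scale for the tested members of 30 gene lists, 1 point per gene, with orange points for genes called 2-fold or more higher, blue for lower, a bar at each list's median and a dashed line at the median of all tested genes (0.04). The absorptive list has the highest median (1.15) and the ATF4 list the lowest (-0.52).

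Ribosomal proteins and the subunits of the respiratory chain are built into complexes in fixed proportion, and their genes did not differ alike. Of 53 tested ribosomal protein genes 12 were called lower and 1 higher, against 3.16% of all genes each way, and differences ranged from -2.89 to 1.13 with a median of -0.51. RPLP1, an acidic protein of the large subunit, had 4611, 4741 and 4419.9 TPM in LS411N and 619.9, 624 and 605 in LS411N-BR (-2.89 ± 0.05, limma adjusted p = 1.01e-08). RPS28, of the small subunit and chosen after its values were seen, had 1856, 2012 and 1678 TPM and 3963, 3915 and 4204, the opposite direction. RPLP2, the partner of RPLP1, fell from 1878 ± 114 to 430.4 ± 26.0 TPM, RPS10 from 13.0 ± 3.06 to 1.60 ± 0.501 and RPS27, which was not in the list, from 1985 ± 75.7 to 263 ± 6.83. The level of RPS10 was far below those of the other ribosomal protein genes named here in both lines, and why was not tested. Of 31 oxidative phosphorylation genes 8 were called lower and none higher, against the same 3.16% each way. COX4I1, a subunit of cytochrome oxidase, fell from 384, 378 and 411 TPM to 115, 104 and 109, and COX6A1, another subunit chosen after its values were seen, rose by 0.97 ± 0.08 from 379 ± 17.0 TPM. The complex I subunits NDUFA2 and NDUFB9 fell by 2.68 and 2.43 times.

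Short mRNAs were looked at apart, since TPM divide reads by a gene length. PET100, an assembly factor of cytochrome oxidase whose shortest coding transcript in GENCODE 29 has 219 bases, had 182, 183 and 159.7 TPM in LS411N and 15.1, 14.5 and 13.9 in LS411N-BR (-3.50 ± 0.06, limma adjusted p = 8.59e-09). SNRPF, a core spliceosome protein, fell from 361 ± 18.3 to 42.2 ± 0.957 TPM. Of genes with a shortest coding transcript under 400 bases 4.88% were called lower and 2.12% higher, and of those with 1000 bases and over 2.29% and 3.41%. Among the ribosomal protein genes 3 of 14 under 400 bases and 9 of 39 of 400 bases and over were called lower, with medians of -0.32 and -0.52, and an order by length was not tested. Whether the tables used the same lengths could be checked only in low genes. In 1873 genes whose values stepped in whole reads in both tables, the step differed between tables by 0.05 (median, log2) and was within 0.25 of that in 91% of genes. For abundant genes such as RPLP1 this was not measurable, and the table, the line and the inhibitor cannot be told apart.

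**Figure D3:**
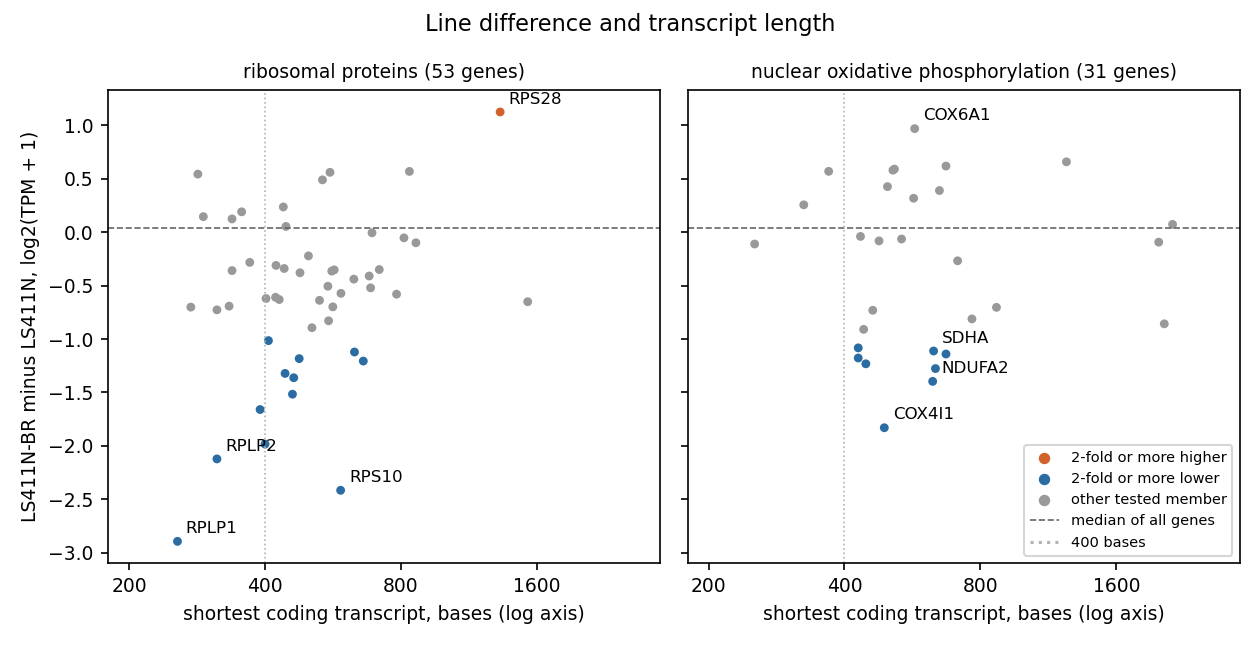
Difference of LS411N-BR minus LS411N on the log2(TPM + 1) scale against the length of the shortest coding transcript (log axis, GENCODE 29) for 53 ribosomal protein genes and 31 oxidative phosphorylation genes, 1 point per gene. Genes called lower (blue) lie on both sides of 400 bases, and members of one complex range from -2.89 (RPLP1) to 1.13 (RPS28).

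The same line difference was looked at in the 6 libraries with doxycycline, in which the hairpin was induced and which took no part in the calls above. There 386 genes were called higher (3.31% of 11661 tested) and 485 lower (4.16%). Of the 363 genes called higher without doxycycline, 352 were tested with it and 262 were called higher there as well, 72.2% of the former list and 67.9% of the latter. Of the 363 called lower, 354 were tested and 315 were called lower, 86.8% and 64.9%. No gene was called in the opposite direction, and 3 of the higher genes and none of the lower ones had a value of the other sign. These libraries are separate from the first 6 but come from the same lines, media and tables, so they repeat the measurement and do not separate line, inhibitor and table.

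Values with doxycycline stood beside those without it as follows for the genes described most fully. ANPEP differed by 4.59 with doxycycline against 3.78 without it, TMEM200A by 3.83 against 3.98, LYZ by -5.01 against -4.15 and DUSP4 by -1.21 against -1.62. KRT20 stood at 21.0 TPM in LS411N and 152 in LS411N-BR with doxycycline, a difference of 2.79 against 2.47. REG1A had the same direction at a smaller size, with 0.200 and 6.64 TPM and a difference of 2.68. CXCR4 did so too, at 1.90 and 0.298 TPM and -1.16. The absorptive list had a median of 1.13 with doxycycline, 18 of 29 members called higher and 1 lower. Fitted to all 12 libraries, limma with an interaction term found the line difference to differ between the culture conditions for 1180 of 11858 genes, for 43 of them by 2-fold or more. That of REG1A was 2.64 ± 0.18 (without minus with doxycycline, adjusted p = 5.03e-06) and that of CXCR4 -1.83 ± 0.11 (adjusted p = 2.11e-06).

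**Figure D4:**
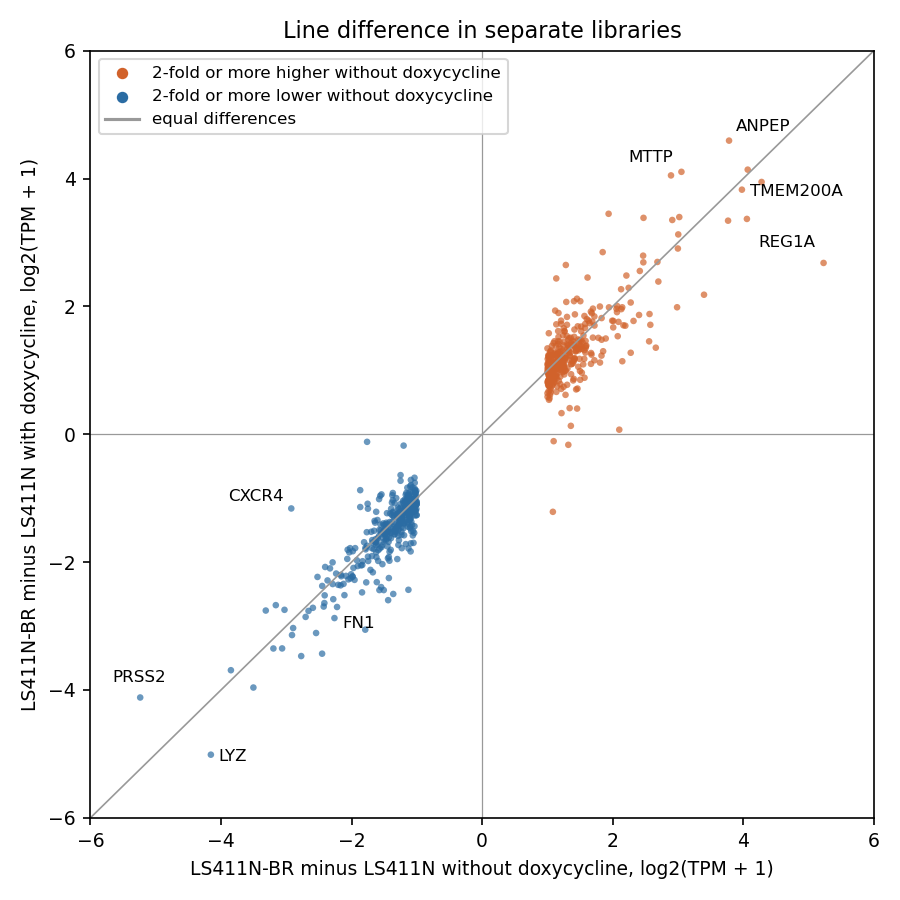
Line difference (LS411N-BR minus LS411N, log2(TPM + 1)) in the 6 libraries without doxycycline, horizontal, against the 6 with it, vertical, for the 706 genes called at 2-fold without doxycycline and tested with it. All but 3 points lie in the quadrants of equal sign, REG1A and CXCR4 lie nearer to 0 with doxycycline, and the diagonal marks equal differences.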

How the data were processed

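The deposited values are TPM per gene, made by the authors with 1 table per line. Libraries were made with TruSeq Stranded mRNA, per the labels' protocols. STAR, DESeq2 and GRCh38 are named, without roles, per the submitters' processing notes. The sources used here give no program for the TPM, no annotation or gene lengths and no read totals, so values carry no counting interval.

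The deposited tables list 25673 genes for LS411N and 25540 for LS411N-BR, all of the latter among the former. Short RNA genes held 47.2 to 58.1% of the TPM in the 3 parental libraries and 52.3 to 54.2% in the 3 of LS411N-BR. Of the 133 genes listed for LS411N alone, which held 19.8 to 23.3% of the TPM of the 3 parental libraries, 80 are short RNA genes. Each library was therefore rescaled to 1000000 over the shared genes and then by median-of-ratios size factors. The test was limma 3.58.1 (R 4.3.3) on log2(TPM + 1), two-sided, the prior variance following mean level, with Benjamini-Hochberg adjustment over all tested genes. The libraries with doxycycline were treated alike, and a limma fit of all 12 gave the interaction term.

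Groups came from the treatment and cell line labels. The genes and lists described were chosen with earlier results of these data known. Named genes were MUC1, the 12 with the largest difference each way among called genes without overlap and with a mean of at least 5 TPM in the higher group, up to 3 called members of each of 30 lists with the largest difference, and 26 genes taken whatever their values. Genes outside this rule are marked where they are named, and 3 of the 26 are not reported here. Positions and transcript lengths came from GENCODE 29 and promoters from RefSeq (GRCh38.p14). Symbols matched RefSeq for 23345 genes. The other settings tried were the scaling, the pseudocount, the filter, the trend, robust moderation, a spread from all 12 libraries, the replicate number as a block, leaving out each library and, added after seeing the data, protein-coding genes only and coding transcripts of at least 400 bases.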

Additional observations from a re-analysis of the deposited data

Results flagged for a closer look

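For 40 of the named genes the line difference without doxycycline differed from that with it, by limma with an interaction term in a fit to all 12 libraries (adjusted p under 0.05). Each value in parentheses is LS411N-BR minus LS411N without doxycycline, minus the same with it, on the log2(TPM + 1) scale.

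Of the genes higher in LS411N-BR without doxycycline, 10 were higher by less with it, namely REG1A (2.64), TSPAN7 (0.73), TMEM200A (0.27), CEACAM6 (0.69), ATOH1 (1.20), LGALS4 (0.28), CDH17 (0.42), NDRG1 (0.93), MAGED1 (1.17) and SPRY2 (0.32). For ATOH1 this value is nearly its whole difference without doxycycline (1.24), so hardly any line difference was left with it. Another 5 were higher by more with doxycycline, namely ANPEP (-0.75), MTTP (-0.96), TMEM132D-AS1 (-0.37), THBS1 (-0.66) and ABCG2 (-0.34). Of the genes lower in LS411N-BR without doxycycline, 15 were lower by more with it, namely LYZ (0.85), PHLDA1 (0.49), VEGFA (0.64), DDIT4 (0.73), SPDEF (1.07), SMOC2 (0.45), KCNE3 (0.24), CLDN2 (0.39), FN1 (0.50), ALDH3A1 (0.95), GDF15 (0.61), CXCL3 (0.57), CXCL1 (0.46), PHGDH (0.28) and SLC7A11 (0.65). The last 10 were lower by less with doxycycline, namely PRSS2 (-1.21), IFI6 (-0.64), SMOC1 (-0.56), PGM5 (-0.34), CXCR4 (-1.83), KCNN4 (-0.79), DUSP4 (-0.44), LCK (-1.42), PROX1 (-0.32) and CDKN2B (-0.35).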

How the results depend on the processing

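Each alternative changed 1 stated choice. The scaling factors and the tested genes were computed again where the libraries or genes in the fit changed. The fits that left out 1 library were an exception and kept the genes tested in the full fit. On the values as deposited neither the rescaling nor the factors were applied. Rescaling over the shared genes alone, without median-of-ratios factors, gave 195 genes at least 2-fold higher and 742 at least 2-fold lower in LS411N-BR, and 1569 higher at any size. On the values as deposited 2128 were lower at any size, and a pseudocount of 0.1 TPM gave 591 at least 2-fold lower. Among the 726 called genes, none was called in the opposite direction under any of these settings. They were called in the same libraries at a log2 difference of at least 1, which nearly ensures that, so it adds no support. MUC1 was called lower under rescaling over the shared genes alone (-0.59, limma adjusted p = 0.00188), with the spread of all 12 libraries (-0.36, adjusted p = 0.0238), with protein-coding genes only (-0.41, adjusted p = 0.0434) and with shortest coding transcripts of at least 400 bases (-0.42, adjusted p = 0.0434). Without 1 library at a time it ranged from -0.52, without LS411N replicate 3, to -0.20, without LS411N replicate 2. MYC changed sign under rescaling over the shared genes alone (-0.056). The cause of these changes was not tested beyond what each setting alters. With the replicate number as a block, 363 genes were 2-fold higher and 363 lower, and it changed no call of a named gene. The numbers share no label of pairing, the correlations of deviations of same-numbered libraries were 0.094, -0.02 and -0.002, and not every library correlated best with its own number. The 2-fold difference seen again with doxycycline covered 577 genes, and 540 to 586 under its alternatives. Depth is unknown. By scaling, the median of all tested genes moved from 0.04 down to -0.21 or up to 0.10. Positive differences smaller than the downward shift, and negative ones smaller than the upward shift, have no direction of their own.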

Other observations

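The guanylin axis of colonic fluid secretion, looked at after the values were seen, was higher in LS411N-BR at its receptor and its channel. GUCY2C, the receptor of guanylin (chr12:14612632-14696585, minus strand, GRCh38), had 1.43, 1.55 and 1.65 TPM in LS411N and 14.5, 15.7 and 15.9 in LS411N-BR (2.69 ± 0.06, limma adjusted p = 2.17e-08). CFTR, the chloride channel that the receptor's signal opens, had 11.8, 12.2 and 12.8 and 60.4, 60.7 and 60.2 TPM (2.21 ± 0.04, limma adjusted p = 1.47e-08). With doxycycline GUCY2C stood at 3.40 and 27.5 TPM and CFTR at 9.19 and 56.0.

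The difference between the lines was also laid along the chromosomes. Chromosome medians over tested genes ranged from -0.13 (chromosome 5) to 0.18 (chromosome 21). Of 211 windows of 10 Mb with at least 20 tested genes, the quartiles of the medians lay between -0.04 and 0.17. The highest median was 0.49. The lowest, -0.36, was that of chromosome 15 from 80 to 90 Mb. There 26 of 40 tested genes were lower and 6 higher at any size, against 32.9% and 39% of all genes. These are descriptions chosen after the values were seen. No copy number was measured, and its part in these values was not tested.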
